A study of Mus musculus with 33 samples.

Results

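Kidneys collected 9 weeks after adenoviral delivery of interferon-alpha were set against kidneys collected at week 7, the 2 latest times of a lupus nephritis series. The arrays were taken by their time point labels and numbered 10 of the 33 in the series, 5 at week 9 and 5 at week 7, each from a separate mouse by the study's design. All mice were female BWF1 hybrids (NZB X NZW F1), a strain that develops lupus nephritis by itself. The treated mice had received ADV_IFNa, an adenovirus carrying mouse IFNα, intravenously. The week 5 kidneys (5 treated mice) and the kidneys of 3 untreated BWF1 mice are given beside the late weeks where they place a gene. There was no group given an empty virus, so all treated weeks share the vector as well as the interferon. Each week holds mice that had lived to that time. The labels do not say whether they were collected together, and the paper describes 2 independent longitudinal experiments. The hour of collection is not given in the sources used here. Anything that the mice of a week shared therefore cannot be told apart from the week.

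Whole-kidney RNA was measured on microarrays, and all levels below are log2 intensities after RMA, a method that summarises the probes of a probe set and puts the arrays on a common scale. The number of arrays limits the precision. A difference of 1 on this scale is a doubling, and all changes are week 9 minus week 7. The labelled tissue was borne out by kidney markers. Umod, the uromodulin of the loop of Henle, stood at 11.19 ± 0.10 at week 9 and 11.07 ± 0.08 at week 7 (SD, n = 5 each), and Kap, a proximal tubule protein, at 12.16 ± 0.29 at week 9 and 12.09 ± 0.24 at week 7. Nphs1, the nephrin of podocytes, and Aqp2, the water channel of the collecting duct, averaged 4.54 and 4.63 at week 9 and 4.16 and 5.00 at week 7. In whole kidney, fewer cells of a type and less RNA per cell cannot be told apart.

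Interferon, the clock and protein folding recur in the results. Interferon acts through STAT transcription factors to switch on antiviral and antigen-presentation genes, and a lasting interferon response is a hallmark of lupus. The circadian clock is a feedback loop in which CLOCK and BMAL1 drive the period (Per) and cryptochrome (Cry) genes, whose proteins then repress that drive, and the kidney keeps a strong clock. Heat shock proteins such as HSP90 and their co-chaperones fold other proteins, and their genes share the heat shock element as a control sequence.

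Very little passed a test between the late weeks. With limma across all 33 arrays and Benjamini-Hochberg adjustment over 45037 probe sets, 5 probe sets (0.0111%) were higher and 26 (0.0577%) lower at week 9 at an adjusted p below 0.05. Only 6 of these 31 (0.0688% of all tested) moved more than 2-fold, 3 in each direction (0.00666% each). With arrays centred on their median 4 probe sets were higher and 2 lower, and after a further quantile normalization 3 were higher and 0 lower, so the excess of lower calls depended on the scaling. The same fit passed 3824 probe sets (8.49%) between week 7 and week 5. Taking the brightest probe set of each of 17097 genes, 12 passed (0.0702%), of which 2 rose (0.0117%) and 10 fell (0.0585%), with 1 beyond 2-fold in each direction (0.00585% each). The genes that rose were Atp12a, the catalytic subunit of a proton-potassium pump of colon and collecting duct, and Sft2d3, named for its likeness to a Golgi traffic protein of yeast. The genes that fell were Dnm3os, Cry1, Syne2, Pfkfb2, Gpt2, Kcnk5, Ahsa2, Farsa, Dcun1d3 and Chordc1. The p-values rest on the spread between mice within every group of the 33 arrays, and not on that of the late mice alone.

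Promoters are shown for 2 of the genes that fell, Cry1 as the only clock gene past the threshold and Chordc1 as an HSP90 co-chaperone, the second chosen after its values were seen. Both runs are RefSeq sequence of GRCm38.p6, 250 bases before to 50 after the start of the gene, written 5′ to 3′. In Cry1 (chr10:85185005-85185304, minus strand) the capitals mark the single E-box, CACGTG, the core site that CLOCK and BMAL1 bind, with its first base at position 191 of the 300. In Chordc1 (chr9:18292017-18292316, plus strand) they mark 2 matches to the heat shock element core GAANNTTC, with first bases at 247 and 257.
Cry1: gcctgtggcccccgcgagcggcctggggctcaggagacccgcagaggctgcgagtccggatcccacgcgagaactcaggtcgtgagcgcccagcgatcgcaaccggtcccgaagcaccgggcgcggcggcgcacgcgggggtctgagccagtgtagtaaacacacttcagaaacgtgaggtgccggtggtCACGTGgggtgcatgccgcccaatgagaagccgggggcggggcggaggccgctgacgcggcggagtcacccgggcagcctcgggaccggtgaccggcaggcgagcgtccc
Chordc1: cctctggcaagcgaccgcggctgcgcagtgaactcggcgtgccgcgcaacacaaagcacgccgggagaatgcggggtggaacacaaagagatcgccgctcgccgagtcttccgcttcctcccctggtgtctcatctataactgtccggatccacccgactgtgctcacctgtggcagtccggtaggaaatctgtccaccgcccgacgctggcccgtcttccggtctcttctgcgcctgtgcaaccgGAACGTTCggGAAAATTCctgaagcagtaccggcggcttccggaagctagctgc
The motifs were searched on both strands. Of 32851 mouse promoters of the same length, 7.15% held the E-box and 7.86% the heat shock element. Of the 12 genes past the threshold 10 had a promoter in the table. A gene was counted where any of its promoters held the motif, whereas the shares are of single promoters. The E-box was found in 3 of the 10 genes, Cry1, Pfkfb2 and Kcnk5, and the heat shock element in Chordc1 alone. The promoter of Ahsa2, the other gene that fell with a tie to HSP90, was searched too and held no heat shock element. The CRE half-site TGACG, held by 20.8% of promoters, was found in Cry1, Pfkfb2 and Dcun1d3. The other motifs searched had no match in the promoters of the 10 genes. They were the D-box TTANGTAA (2.32% of promoters), the interferon-stimulated response element core GAAANNGAAA (3.44%), the NF-kB site GGGANTTTCC (0.411%), the AP-1 site TGANTCA (7.81%), the cell cycle element TTTGAA (17.9%) and the HNF4 site CAAAGNCCA (1.98%). A match is a description of the letters and not of a bound site, and none of the results below rests on it.

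Cry1, a cryptochrome and a core repressor of the clock, fell at week 9. Its levels were 4.57, 4.20, 4.17, 4.74 and 4.29 in week 9 kidneys, against 4.88, 5.97, 5.13, 4.95 and 5.49 in week 7 kidneys. Every week 9 kidney lay below every week 7 kidney, as for 164 of all genes (0.959%). The change was -0.89 (SE 0.17, limma adjusted p = 0.0340). Cry1 was a dim signal, averaging from 3.91 at week 2 to 5.28 at week 7. It was left out of the fit without dim probe sets (mean below 5). Week 7 was the time that stood apart: Cry1 averaged 4.41 in untreated, 4.22 in week 5, 5.28 in week 7 and 4.40 in week 9 kidneys. It was above untreated by 0.87 at week 7 (limma adjusted p = 0.00238) and differed from untreated by -0.02 at week 9 (adjusted p = 0.971). These contrasts share the week 9 and week 7 arrays and are given as each comparison's own values.

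**Figure D1:**
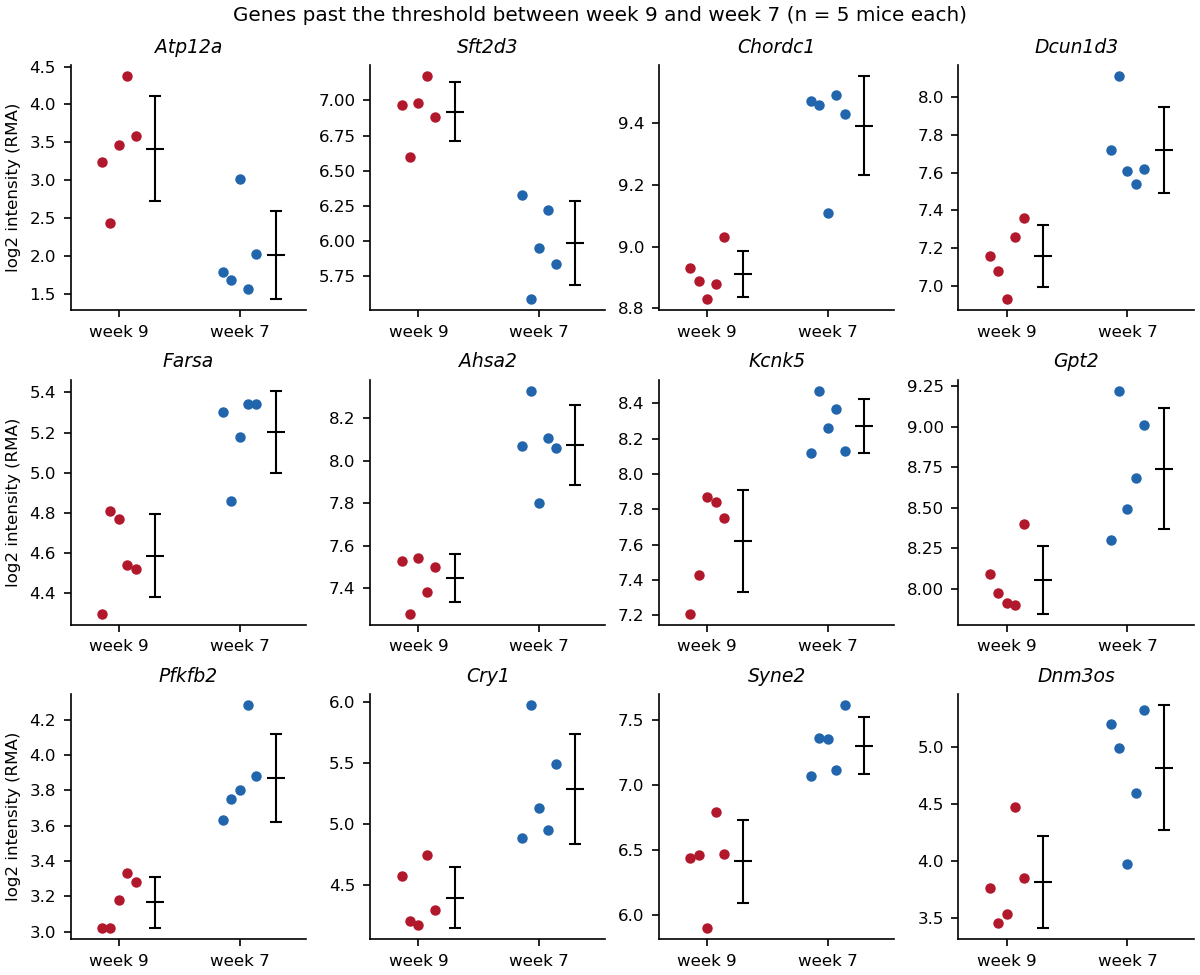
Log2 intensity (RMA) of the 12 genes past the threshold, week 9 left (red) and week 7 right (blue). Each point is a mouse, and the bar beside the points is the mean with the SD of 5 mice. In 9 of the 12 panels the weeks do not overlap, while Atp12a, Dnm3os and Gpt2 overlap. Of all 17097 genes, 0.205% lay above and 0.959% below without overlap. The 12 genes were picked by the same contrast, so their lack of overlap is no separate support.

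Among the 22 clock genes measured, Cry1 alone fell and none rose. The list's median change was -0.21, beside -0.07 for all genes, and 15 members were lower (68.2%, against 66.1% of all genes). At an unadjusted p below 0.05, 9 members were lower (40.9%, against 10.2% of all genes). Per1 and Per2, the period repressors, had the next largest differences. Per2 read 3.75, 4.01, 4.18, 4.77 and 4.46 at week 9, against 4.90, 5.49, 5.00, 5.28 and 4.46 at week 7, a change of -0.79 that did not pass (limma adjusted p = 0.156). Per1 read 4.39, 5.08, 5.08, 5.97 and 5.28 at week 9 and 5.52, 6.16, 6.05, 6.08 and 6.11 at week 7, with a change of -0.83 (adjusted p = 0.226). For both genes the weeks overlapped. The Per2 probe set was itself dim, with a mean of 4.55 over all arrays, and a second, dimmer one differed by 0.00. Rora, the nuclear receptor that drives Bmal1, did not overlap between the weeks and did not pass either (-0.33, adjusted p = 0.200). Arntl, which encodes BMAL1, differed by -0.41 (adjusted p = 0.348), and its partner Clock by -0.18 (adjusted p = 0.494). Some clock genes differed in the opposite direction, also without passing. Nr1d2, a repressor of Bmal1, differed by 0.22, the output factors Tef and Hlf by 0.21 and 0.29, and Dbp by 0.16. Cry2, the second cryptochrome, differed by -0.01.

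Chordc1, an HSP90 co-chaperone, and Ahsa2, a relative of the HSP90 activator Ahsa1, both fell. Chordc1 read 8.93, 8.89, 8.83, 8.88 and 9.03 at week 9, against 9.47, 9.46, 9.11, 9.49 and 9.43 at week 7 (-0.48, SE 0.10, limma adjusted p = 0.0390). Ahsa2 read 7.53, 7.28, 7.54, 7.38 and 7.50 at week 9, against 8.07, 8.33, 7.80, 8.11 and 8.06 at week 7 (-0.63, SE 0.13, adjusted p = 0.0482). For both, all week 9 kidneys lay below all week 7 kidneys. By their group means the 2 genes ran a course unlike that of Cry1. Chordc1 averaged 9.47 in untreated kidneys and then 9.57, 9.01, 8.95, 8.86, 9.39 and 8.91 at weeks 1, 2, 3, 5, 7 and 9. Ahsa2 averaged 8.01 in untreated kidneys and then 8.0, 7.45, 7.53, 7.51, 8.07 and 7.44. For both genes the week 7 mean was near those of untreated and week 1 kidneys, and the week 9 mean near those of weeks 2 to 5. Week 9 minus untreated was -0.56 for Chordc1 (limma adjusted p = 8.84e-04) and -0.56 for Ahsa2 (adjusted p = 0.0107). Week 7 minus untreated was -0.08 (adjusted p = 0.685) for Chordc1 and 0.06 (adjusted p = 0.827) for Ahsa2.

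**Figure D2:**
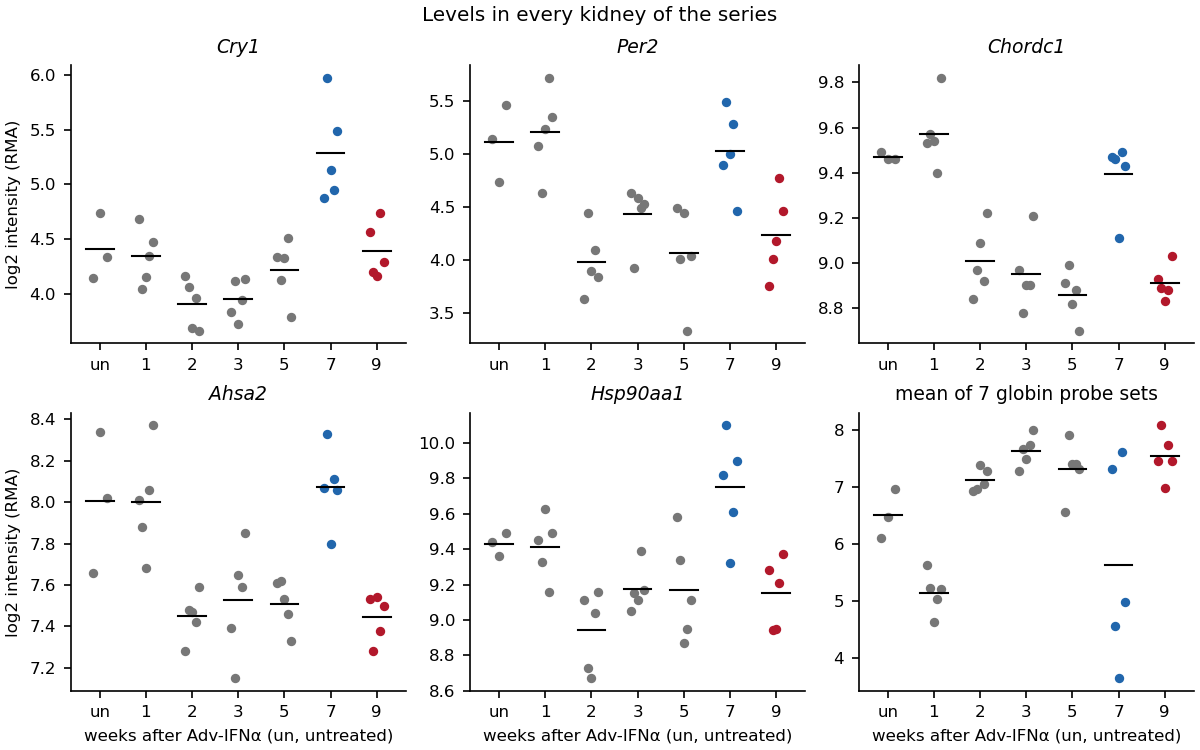
Log2 intensity (RMA) of 5 genes and the mean of 7 globin probe sets in all 33 kidneys, from untreated (un) to week 9, with week 7 in blue and week 9 in red. Points are mice and lines are group means. Chordc1, Ahsa2 and Per2 average higher in untreated, week 1 and week 7 kidneys than at the other times, whereas Cry1 averages highest at week 7, and globin is low at week 1 and in 3 week 7 kidneys.

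The wider list of chaperones and genes of the unfolded protein response, to which neither co-chaperone belongs, gave no member past the threshold. Of its 26 measured members 25 were lower at week 9 (96.2%, against 66.1% of all genes) and 11 were lower at an unadjusted p below 0.05 (42.3%, against 10.2% of all genes). The median change was -0.24, beside -0.07 for all genes. The list score, the mean over members of the level minus its mean over all 33 arrays, was 0.10, -0.08, -0.15, 0.12 and 0.12 at week 9, against 0.34, 0.44, 0.13, 0.09 and 0.35 at week 7. The score of week 7 replicate 4 lay among those of week 9. Hsp90aa1, the inducible HSP90, read 9.28, 8.94, 8.95, 9.21 and 9.37 at week 9 and 9.82, 10.1, 9.32, 9.61 and 9.90 at week 7, a change of -0.60 (SE 0.14, limma adjusted p = 0.0898). Xbp1, the factor that drives secretory capacity, differed by -0.71 in its brightest probe set (adjusted p = 0.108) but by -0.20, -0.07 and -0.04 in its others. Hspa5 (BiP, the main chaperone of the endoplasmic reticulum) and the disulphide isomerase Pdia6 did not overlap between the weeks, at -0.40 (adjusted p = 0.242) and -0.34 (adjusted p = 0.156), and their second probe sets differed by -0.54 and 0.03. Hspa8, the constitutive heat shock cognate, was the exception at 0.01.

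Rbm3, a cold-inducible RNA-binding protein chosen after its values were seen, resembled Cry1 in standing out at week 7. It read 5.61, 5.72, 5.96, 5.32 and 5.70 at week 9, against 6.42, 6.46, 6.36, 6.58 and 6.60 at week 7, with no overlap (-0.82, limma adjusted p = 0.0768). Week 7 minus week 5 was 1.36 for Rbm3 (adjusted p = 8.87e-05). Both contrasts use the week 7 arrays whose values were known when the gene was chosen, so neither is separate support. Its relative Cirbp differed the other way, by 0.51 (adjusted p = 0.199).

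The remaining genes that fell serve varied ends. Syne2 encodes nesprin-2, which ties the nuclear envelope to the cytoskeleton. It read 6.44, 6.46, 5.90, 6.79 and 6.47 at week 9, against 7.07, 7.36, 7.35, 7.11 and 7.61 at week 7 (-0.89, SE 0.15, limma adjusted p = 0.0158). Its 3 other probe sets differed by -0.13, 0.18 and -0.34, so the fall was seen by 1 probe set of the gene. Kcnk5, a pH-sensitive potassium channel of the kidney tubule, read 7.21, 7.43, 7.87, 7.84 and 7.75 at week 9 and 8.12, 8.47, 8.26, 8.37 and 8.13 at week 7 (-0.65, SE 0.12, adjusted p = 0.0201). Neither gene overlapped between the weeks. A second, dim Kcnk5 probe set differed by 0.05.

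Enzymes of glucose and amino acid use were among them. Gpt2, the mitochondrial alanine aminotransferase, read 8.09, 7.97, 7.91, 7.90 and 8.40 at week 9, against 8.30, 9.22, 8.49, 8.68 and 9.01 at week 7 (-0.69, SE 0.14, limma adjusted p = 0.0414). A second Gpt2 probe set also passed (-0.74, adjusted p = 0.0482) and another differed by -0.08. Pfkfb2, which makes the glycolytic activator fructose 2,6-bisphosphate, averaged 3.17 ± 0.14 at week 9 and 3.87 ± 0.25 at week 7 (SD, n = 5 each), a dim signal, with a change of -0.70 (SE 0.14, adjusted p = 0.0380). Farsa, a subunit of the phenylalanyl-tRNA synthetase, averaged 4.59 ± 0.21 at week 9 and 5.20 ± 0.20 at week 7 (-0.62, SE 0.12, adjusted p = 0.0390). Dcun1d3, which acts in the attachment of NEDD8 to cullins, averaged 7.16 ± 0.16 at week 9 and 7.72 ± 0.23 at week 7 (-0.56, SE 0.11, adjusted p = 0.0238). These 3 did not overlap between the weeks. Their other probe sets differed by -0.15 and -0.09 for Pfkfb2, by -0.21 and -0.29 for Farsa, and by -0.10 for Dcun1d3.

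Dnm3os, the non-coding host transcript of miR-199a and miR-214, had the largest change among the genes that fell. It read 3.76, 3.45, 3.53, 4.47 and 3.85 at week 9, against 5.20, 4.99, 3.97, 4.60 and 5.33 at week 7 (-1.01, SE 0.21, limma adjusted p = 0.0482). Week 9 replicate 4 lay above week 7 replicate 3, and a second probe set differed by -0.66 (adjusted p = 0.171).

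Of the 2 genes that rose, Sft2d3 separated the weeks. It read 6.97, 6.60, 6.98, 7.17 and 6.88 at week 9, against 6.33, 5.59, 5.95, 6.22 and 5.84 at week 7 (0.93, SE 0.14, limma adjusted p = 0.0110). Week 7 minus untreated was -0.57 (adjusted p = 0.0160) and week 7 minus week 5 was -0.82 (adjusted p = 5.03e-04), while week 9 minus untreated was 0.36 (adjusted p = 0.149). Atp12a read 3.24, 2.44, 3.46, 4.37 and 3.58 at week 9 and 1.79, 1.69, 3.01, 1.56 and 2.02 at week 7 (1.41, SE 0.23, adjusted p = 0.0132). Week 7 replicate 3 lay above week 9 replicate 2. Atp12a averaged 1.27 in untreated and 1.65 in week 5 kidneys, at the dim end of the array, so its rise at week 9 was away from the untreated mean.

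Beyond these 12, 18 probe sets in all with a single gene name passed, and 13 passing probe sets had no single gene name. The others were the second Gpt2 probe set and dimmer probe sets of Fgf9 (0.92, limma adjusted p = 0.0365), Hba-a1 (3.51, adjusted p = 0.0414), Dgcr8 (-0.60, adjusted p = 0.0423), Aff4 (-0.67, adjusted p = 0.0475) and Fgfr1op2 (-0.62, adjusted p = 0.0482). The brightest probe sets of Fgf9, Dgcr8, Aff4 and Fgfr1op2 differed by 0.14, -0.27, -0.22 and -0.04.

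The calls rested on the variance shared by all groups. In a fit of the 10 late arrays alone, limma passed 0 probe sets, while 4111 had an unadjusted p below 0.05. The counts moved with single kidneys. Without week 7 replicate 4 there were 121 probe sets higher and 195 lower, and without week 7 replicate 5 there were 2 higher and 3 lower. All 12 genes passed without week 7 replicate 4, without week 7 replicate 3 and without week 9 replicate 5, while 2 passed without week 7 replicate 5, 3 without week 9 replicate 1, 3 without week 9 replicate 3, 4 without week 9 replicate 2, 4 without week 7 replicate 2, 7 without week 7 replicate 1 and 8 without week 9 replicate 4. Over all alternative settings Sft2d3 passed in 19 of 22, Atp12a in 19 of 21, Syne2 in 15 of 22, Cry1 in 9 of 21, and Ahsa2 and Chordc1 in 6 of 22 each. The changes themselves kept their direction and much of their size over these settings, the globin covariate included. They ran from 0.71 to 1.02 for Sft2d3, from 1.17 to 1.90 for Atp12a, from -0.98 to -0.76 for Syne2, from -0.99 to -0.62 for Cry1, from -0.71 to -0.55 for Ahsa2 and from -0.61 to -0.41 for Chordc1.

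Interferon genes were lower at week 9 in nearly every member without any gene passing. Of 33 interferon-stimulated genes measured all 33 were lower (100%, against 66.1% of all genes), with a median change of -0.57, beside -0.07 for all genes, and 22 lower at an unadjusted p below 0.05 (66.7%, against 10.2% of all genes). Of 18 genes induced by interferon-gamma 17 were lower (94.4%), with a median of -0.69 and 11 lower at an unadjusted p below 0.05 (61.1%). All 10 genes of MHC class I presentation were lower (median -0.29), but only 1 at an unadjusted p below 0.05 (10%, near the share of all genes). Among 20 nucleic acid sensors 16 were lower (80%, median -0.12), 5 at an unadjusted p below 0.05 (25%). With each kidney left out the MHC class I median ran from -0.45 (without week 7 replicate 4) to -0.15 (without week 9 replicate 2 or week 7 replicate 1), and the sensor median from -0.23 (without week 7 replicate 4) to -0.03 (without week 9 replicate 2). Both times lay above untreated. The median over the interferon-stimulated genes was 1.87 above untreated at week 9 and 2.40 above untreated at week 7.

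Ifit1, which binds foreign RNA caps, shows the spread within the weeks. It read 8.26, 7.42, 9.02, 9.42 and 9.43 at week 9, against 10.44, 9.93, 9.25, 8.81 and 10.08 at week 7 (-0.99, SE 0.36, limma adjusted p = 0.245). The list score was -0.18, -0.98, -0.11, 0.39 and 0.41 at week 9 and 1.28, 0.63, 0.06, -0.17 and 0.63 at week 7. Week 9 replicate 2 was lowest and week 7 replicate 1 highest, and the weeks overlapped. Leaving out 1 kidney at a time gave list medians from -0.72 to -0.36, the weakest without week 7 replicate 1. For the interferon-gamma list the medians ran from -0.84 to -0.35, the weakest again without that kidney. Usp18, which damps the interferon receptor, differed by -0.95 (adjusted p = 0.196), the interferon regulator Irf7 by -0.93 (adjusted p = 0.260), and the immunity-related GTPases Igtp and Tgtp1 by -1.05 (adjusted p = 0.171) and -0.95 (adjusted p = 0.296). Mx1 differed by -0.11.

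**Figure D3:**
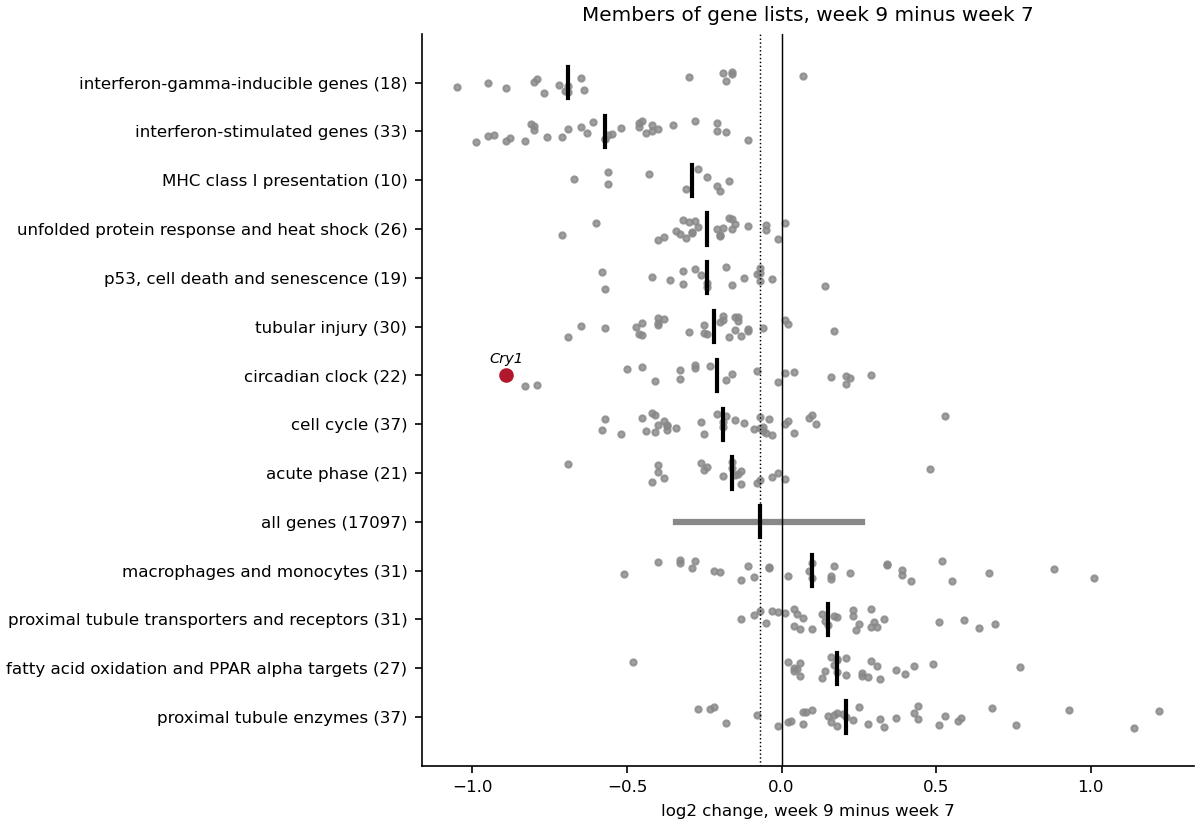
Log2 change, week 9 minus week 7, of each measured member of 13 gene lists (grey points, with the number measured in brackets) and, for all 17097 genes, the span from the 5th to the 95th percentile. Black bars are medians, the dotted line is the median of all genes (-0.07), and the red point is Cry1, the only member past the threshold. All interferon-stimulated genes lie below 0 and most proximal tubule enzymes above it.

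Proximal tubule genes differed mostly in the opposite direction to the interferon genes. The proximal tubule, which reabsorbs most of the filtrate, is rich in metabolic enzymes and transporters. Of 37 enzymes measured 31 were higher at week 9 (83.8%, against 33.9% of all genes), with a median of 0.21 and 6 higher at an unadjusted p below 0.05 (16.2%, against 2.59% of all genes). Of 31 transporters and receptors 25 were higher (80.6%, median 0.15), and of 27 genes of fatty acid oxidation 26 were higher (96.3%, median 0.18). Leaving out 1 kidney at a time gave medians from 0.12 for the enzymes (without week 7 replicate 5), 0.05 for the transporters and 0.12 for fatty acid oxidation (both without week 9 replicate 3), up to 0.44 for the enzymes and 0.40 for the transporters (both without week 7 replicate 4) and 0.30 for fatty acid oxidation (without week 9 replicate 1). Further along the nephron the medians were 0.05 over 24 loop of Henle and distal genes and -0.03 over 24 collecting duct and osmolyte genes. None of these passed. Both weeks lay below untreated, by a median over the enzymes of -0.66 at week 9 and -0.94 at week 7. Of 30 tubular injury genes 27 were lower at week 9 (90%, against 66.1% of all genes, median -0.22), while 1 was lower at an unadjusted p below 0.05 (3.33%, under the 10.2% of all genes) and none passed. With the globin signal described below as a covariate, the injury median was 0.05 and the enzyme median 0.05.

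For tubule genes the kidneys of a week were unlike each other. Lcn2, which encodes the injury marker NGAL, read 8.84, 4.82, 5.90, 9.94 and 8.55 at week 9, against 9.55, 9.93, 8.53, 4.30 and 9.21 at week 7, with an SD of 2.15 at week 9 and 2.30 at week 7. Dnase1, an endonuclease of the tubule, ran against it, at 8.39, 11.39, 10.29, 7.70 and 7.31 at week 9 and 6.53, 6.11, 7.76, 11.24 and 7.33 at week 7. Bhmt, of betaine metabolism, read 3.75, 6.38, 6.53, 3.69 and 3.27 at week 9 and 3.51, 2.58, 3.00, 6.67 and 2.16 at week 7. Week 9 replicates 2 and 3 and week 7 replicate 4 had the lowest Lcn2 and the highest Dnase1 and Bhmt of the late kidneys. Neither Lcn2 (-0.69, limma adjusted p = 0.708) nor Dnase1 (1.22, adjusted p = 0.384) passed. Without week 7 replicate 4, Dnase1 differed by 2.08 (limma adjusted p = 0.0249) and Bhmt by 1.91 (adjusted p = 0.0297). In that fit 5 of 37 proximal tubule enzymes and 2 of 31 transporters and receptors passed as higher. Of all 17097 genes, 68 passed as higher and 82 as lower. The kidney left out is the one that these same tubule genes set apart, so the added calls are no separate support. The median of the injury list was -0.53 without that kidney and -0.03 without week 9 replicate 2.

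**Figure D4:**
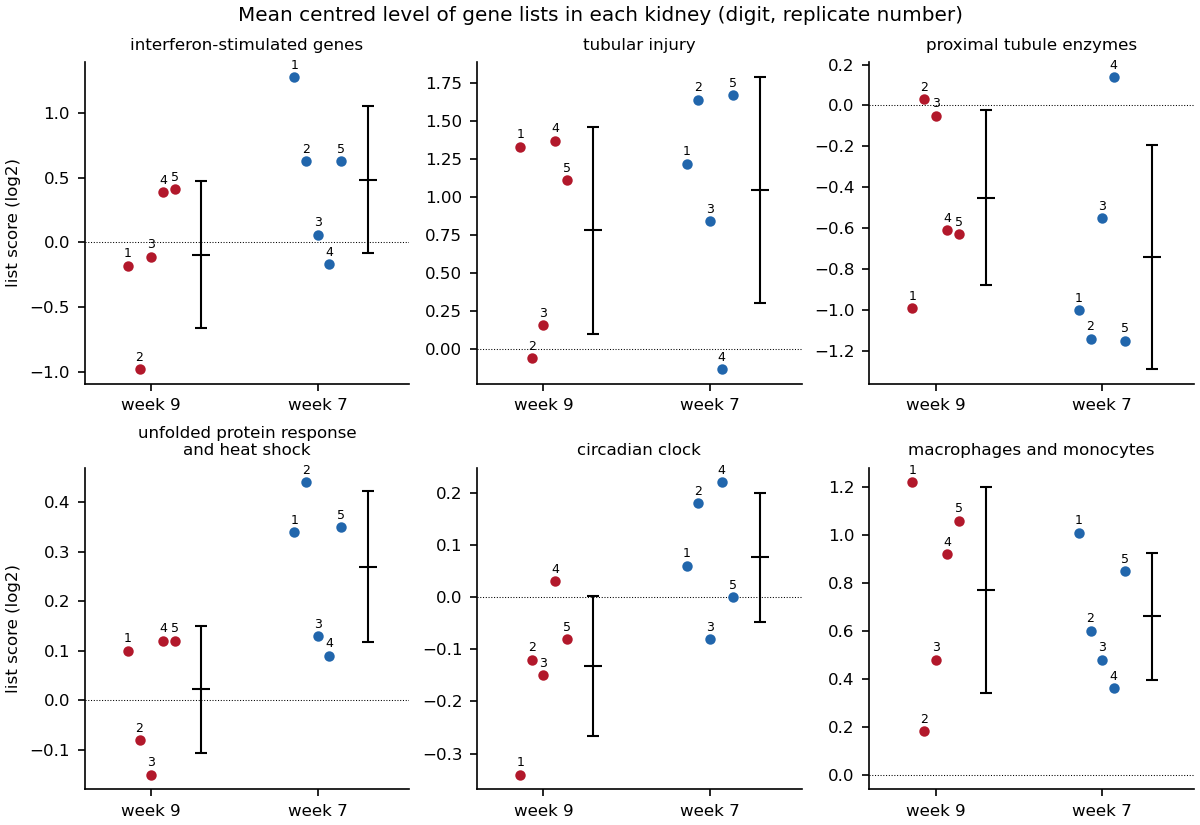
Score of 6 gene lists (mean over members of the log2 level minus its mean over the 33 arrays) in each kidney, week 9 left (red) and week 7 right (blue), with the replicate number above each point and the mean and SD of 5 mice as a bar. In the tubular injury and proximal tubule enzyme panels, week 9 replicates 2 and 3 and week 7 replicate 4 stand apart from the other late kidneys.

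The spread between single mice of a week exceeded the difference between the week means for most genes. The median SD over the 17097 genes was 0.205 at week 9 and 0.223 at week 7, and the median absolute change was 0.127. For 13246 genes (77.5%) the change was smaller than the SD pooled over both weeks. Correlations across probe sets between arrays ran from 0.983 to 0.992 within week 9, from 0.981 to 0.989 within week 7 and from 0.978 to 0.992 between the weeks.

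**Figure D5:**
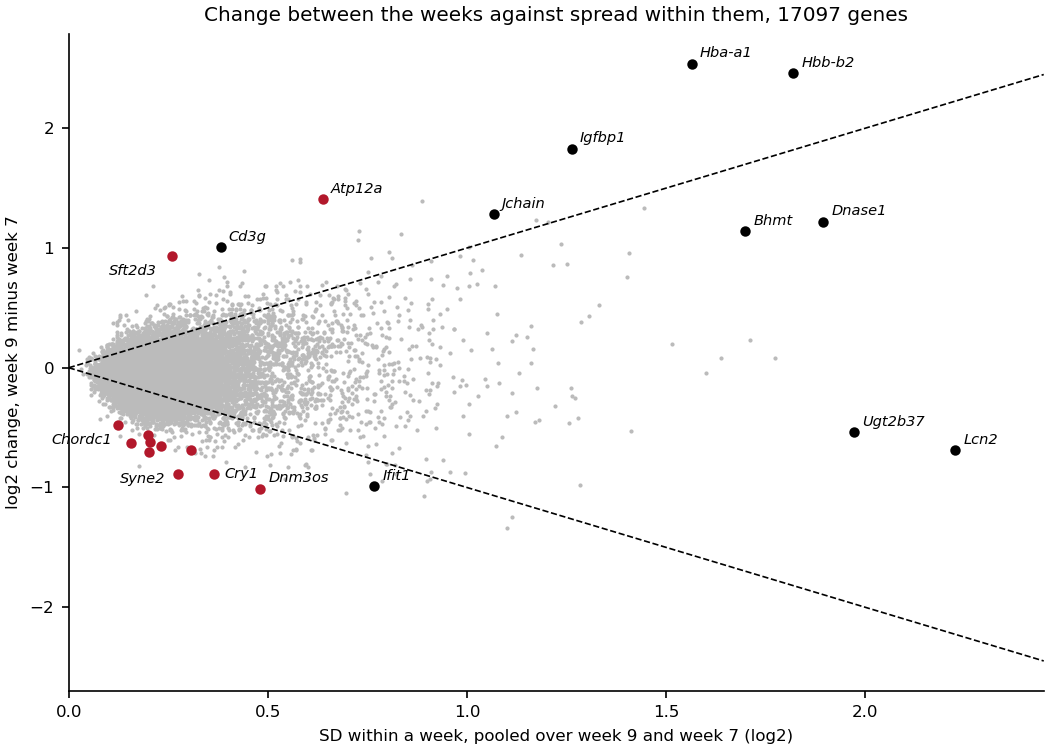
Log2 change, week 9 minus week 7, against the SD within a week (pooled over both weeks, log2) for each of 17097 genes, with the 12 genes past the threshold in red and other genes of the text in black. Dashed lines mark a change equal to the SD of single mice. Between them lie 77.5% of the genes, a description and no test of the weeks. Lcn2 and Ugt2b37 have large SDs and small changes, while Hba-a1 and Hbb-b2 have large values of both.

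Globin RNA, a sign of blood in the kidney, varied widely among week 7 kidneys. The mean of 7 globin probe sets was 7.46, 8.08, 6.98, 7.74 and 7.45 at week 9, against 7.31, 4.57, 3.65, 7.61 and 4.99 at week 7. Week 7 replicates 2, 3 and 5 were low and the other 2 overlapped with week 9. The difference of 1.92 had p = 0.0714 in an exact two-sided permutation test (0.214 adjusted over 3 quality measures), where 5 against 5 arrays can give no less than 0.00794. Hba-a1, an alpha-globin, read 9.77, 10.65, 9.37, 10.17 and 9.82 at week 9 and 9.29, 5.62, 5.39, 10.11 and 6.66 at week 7 (2.54, limma adjusted p = 0.0538). Hbb-b2, a beta-globin, differed by 2.46 (adjusted p = 0.126), and Alas2, the haem synthesis enzyme of red cell precursors, by 1.14 (adjusted p = 0.135). Not all of the 7 globin probe sets moved. The Hba-a2 probe set differed by -0.17 and read 7.24 to 7.76 in the week 7 kidneys, and a dim Hbb-b2 probe set differed by 0.20. Globin genes are near-copies, and their probe sets can share signal. Of the 10 erythroid genes 6 were higher at week 9 (60%, against 33.9% of all genes) and none passed. The mean level of the list ran from 6.18 to 6.70 at week 9 and from 5.06 to 6.66 at week 7. With the globin signal as a covariate 4 probe sets were higher and 2 lower, 1 of the 12 genes passed, and the median of the interferon-stimulated genes was -0.61.

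RNA integrity was read from the array's control probe sets. The 3′ to 5′ log2 ratio of beta-actin was 2.02 ± 0.10 at week 9 and 1.98 ± 0.12 at week 7 (SD, n = 5 each, exact permutation p = 0.635), and that of Gapdh was 1.54 ± 0.08 at week 9 and 1.51 ± 0.11 at week 7 (exact permutation p = 0.548).

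No member of the immune cell lists passed. Of 31 macrophage and monocyte genes 18 were higher (58.1%, against 33.9% of all genes, median 0.10) and 13 lower. At an unadjusted p below 0.05, 4 were higher (12.9%, against 2.59% of all genes) and 2 lower (6.45%, against 10.2%). The list scores were 0.77 ± 0.43 at week 9 and 0.66 ± 0.27 at week 7 (SD, n = 5 each). The 2 largest changes were both upward. Mrc1, the mannose receptor, differed by 1.01 (limma adjusted p = 0.226) and the beta-glucan receptor Clec7a by 0.88 (adjusted p = 0.122). Fcgr1, an Fc receptor also of this list, differed by -0.33 (adjusted p = 0.708), and by 0.14 in a dimmer probe set. Of 25 T and NK cell genes 11 were higher (44%, against 33.9% of all genes) and 14 lower, with a median of -0.02. Cd3g, a chain of the T cell receptor complex, did not overlap between the weeks, as for 35 genes that were higher (0.205%), at 4.50, 3.81, 3.75, 4.44 and 4.21 at week 9 and 3.19, 2.73, 3.71, 2.75 and 3.28 at week 7 (1.01, adjusted p = 0.142). Its partners Cd3d and Cd3e differed by 0.06 and 0.40. The B cell list had 6 members higher (50%, against 33.9% of all genes) and 6 lower (median 0.02), and the median of the neutrophil list was -0.01.

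Plasma cell genes leaned higher without passing. Jchain, which joins polymeric antibodies, read 9.15, 7.96, 7.00, 7.53 and 7.37 at week 9, against 7.63, 4.81, 7.72, 5.67 and 6.78 at week 7 (1.28, limma adjusted p = 0.270). Iglv1, a lambda light chain segment, differed by 0.77 (adjusted p = 0.245). Of 9 plasma cell genes measured 6 were higher (66.7%, against 33.9% of all genes, median 0.14). Xbp1, which is also of this list, was among the 3 that were lower. Of 16 measured genes that the study's text names, 0 passed, and 5 were higher and 11 lower, a split near that of all genes (66.1% lower). They ran from -0.81 for the RNA helicase Ddx60 to 1.28 for Jchain.

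Fibrosis and extracellular matrix genes had a median of -0.08, with 15 of 38 higher (39.5%, against 33.9% of all genes). None of 17 podocyte, 20 endothelial or 14 mesangial and smooth muscle genes passed (medians 0.00, 0.02 and -0.13). Among 37 cell cycle genes 30 were lower (81.1%, against 66.1% of all genes, median -0.19), as were 18 of 19 genes of p53 and cell death (94.7%, median -0.24), again with none past the threshold. The cell cycle median ran from -0.33 (without week 9 replicate 5) to -0.05 (without week 9 replicate 2) and turned to 0.04 with the globin covariate, and the p53 median ran from -0.32 (without week 7 replicate 3) to -0.13 (without week 9 replicate 2). Fos, an immediate early factor, did not overlap between the weeks, at 8.32, 7.92, 7.67, 7.80 and 8.34 at week 9 and 7.03, 7.45, 7.51, 6.71 and 7.47 at week 7, and did not pass (0.78, limma adjusted p = 0.470).

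Outside the threshold, the higher genes with the smallest p included Igfbp1, which binds insulin-like growth factors. It read 9.08, 10.52, 9.67, 9.10 and 8.61 at week 9, against 6.02, 5.87, 8.76, 9.54 and 7.63 at week 7 (1.83, limma adjusted p = 0.0768). Week 7 replicates 3 and 4 reached into the week 9 range. Igfbp1 averaged 10.49 in untreated, 10.4 in week 5, 7.56 in week 7 and 9.40 in week 9 kidneys. It was thus below untreated at week 7 (-2.93, limma adjusted p = 6.02e-05), and differed from untreated by -1.10 at week 9 (adjusted p = 0.116). Rufy3 (0.65, adjusted p = 0.0630), Cnpy4 (0.84, adjusted p = 0.0768) and Ndufc1, a subunit of respiratory complex I (0.61, adjusted p = 0.1000), were others, and of these Ndufc1 did not overlap between the weeks. A second Ndufc1 probe set differed the other way, by -0.21, with overlap. In Rufy3 the difference was seen by 1 probe set of several. Week 7 minus untreated was -0.49 for Rufy3, -0.35 for Cnpy4 and -0.83 for Ndufc1, and week 9 minus untreated was 0.17, 0.49 and -0.21. The contrasts with untreated share the late arrays and are given as values.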

How the data were processed

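The authors deposited log2 expression values from HT-MG-430 PM arrays, computed by RMA, with Partek also named in the submitters' processing notes and no version for either. Trizol-extracted kidney RNA had been biotin-labelled by a NuGEN Ovation kit. The base of the logarithm was taken as 2, and the array's genome build is not given in the sources used here. The table held 45141 probe sets, of which 104 were array controls and 45037 were tested. Of these 28898 had 1 gene symbol, 551 several and 15588 none, which gave 17097 genes. Array medians ran from 3.97 to 4.10, and no array duplicated another.

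limma 3.58.1 (R 4.3.3) was fitted with lmFit and eBayes to 7 group means over all 33 arrays, leaving 26 residual degrees of freedom, with Benjamini-Hochberg adjustment over all probe sets tested and a threshold of 0.05. The fit was first tested on simulated data. Each gene was represented by the probe set with the highest mean over all arrays. RNA quality and blood signal were compared by exact two-sided permutation tests. Figures were drawn with matplotlib 3.10.9 (Python 3.11.15). The genes named were all those past the threshold, filled to 8 per direction by the smallest p among changes over 1.5-fold, with the largest changes of each list, the genes with the largest SD, and genes from the study's text. Per2, Rora, Hspa5, Pdia6, Hsph1, Rbm3, Cirbp, Irf7, Alas2 and others named without passing were added after their values were seen, as was the heat shock motif. The comparison, the gene lists and the rules were chosen with earlier results of these data known. Replicate numbers gave no sign of pairing the mice. Alternatives covered the arrays in the fit, normalization, dim probe sets, array weights, covariates, a replicate block and leaving out each array.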

Additional observations from a re-analysis of the deposited data

Results flagged for a closer look

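Of 226 groups of 5 arrays examined for the quantities and genes named, 12 held an array whose gap to the nearest other exceeded Dixon's critical value of 0.71 of the range, and chance gives about 1 in 20. In week 9, actin's 3′ to 5′ log2 ratio was 2.19 in replicate 3 (others 1.94 to 2.01), Il1b was 5.49 in replicate 4 (others 6.88 to 7.39), Pou2af1 was 5.62 in replicate 1 (others 3.76 to 4.07) and Cirbp was 6.46 in replicate 5 (others 5.81 to 5.98). In week 7, Chordc1 was 9.11 in replicate 3 (others 9.43 to 9.49), and Lat2 was 3.25 (others 3.54 to 3.65) and Ucp1 4.71 (others 3.46 to 3.78) in replicate 2. In week 7 replicate 4, Lcn2 was 4.30 (others 8.53 to 9.93) and Clic3 was 4.17 (others 3.28 to 3.46). In week 7 replicate 1, Cd34 was 4.94 (others 6.17 to 6.59), Per1 was 5.52 (others 6.05 to 6.16) and Egln3 was 4.71 (others 5.14 to 5.24).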

How the results depend on the processing

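The counts of probe sets past the threshold were 5 higher, 26 lower and 6 beyond 2-fold. They became 0, 0 and 0 with the 10 late arrays alone, and 0, 0 and 0 with those arrays and the globin covariate, an alternative chosen after seeing the data (3918 had an unadjusted p below 0.05). They were 4, 16 and 4 with the 30 treated arrays, 10, 33 and 4 without 28142 dim probe sets, 3, 3 and 3 with array weights, 4, 2 and 2 with arrays centred on their median, 3, 0 and 3 after quantile normalization, 4, 15 and 4 with the actin covariate, 5, 11 and 5 with the Gapdh covariate, 4, 2 and 5 with the globin covariate, and 5, 29 and 5 with a trended, robust prior. Centring and quantile normalization moved the median of all genes to 0.00. Leaving out 1 array gave 2 to 121 higher, 3 to 195 lower and 1 to 48 beyond 2-fold. Without week 9 replicate 5 there were 15 higher and 83 lower, and without week 7 replicate 3 there were 19 and 105. Averaging the probe sets of a gene, with adjustment over genes, left 4 genes that fell, Cry1 and Chordc1 among them, against 9 with the brightest probe set. The cause of these shifts was not tested.

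Same-numbered mice deviated together with r from -0.35 to 0.21, which gives no sign that the numbers pair them. So few values cannot exclude a shared batch. A fit with the replicate number as a block passed 5 probe sets higher, 22 lower and 5 beyond 2-fold, with 24 of its 27 among the 31.

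The actin difference of 0.04 ran from -0.01 to 0.07 with each array left out, Gapdh from 0.01 to 0.07, and globin from 1.42 to 2.41 (exact permutation p = 0.0317 without week 7 replicate 1 and 0.0159 without week 7 replicate 4).

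Among genes that did not pass, the sign turned with the globin covariate over all arrays for Lcn2 (0.57), Timp1 (0.14), Bhmt (-0.04), Insig1 (-0.26), Hbb-b2 (-0.26), Hsd17b11 (-0.01), Ugt2b37 (0.16), Car3 (-1.17), Aoc1 (0.05), Akr1c14 (-0.54), Havcr1 (0.47) and Tnc (0.01). Over the late arrays with that covariate it turned for Lcn2 (0.63), Timp1 (0.19), Bhmt (-0.21), Insig1 (-0.42), Hbb-b2 (-0.27), Hsd17b11 (-0.01), Ugt2b37 (0.21), Car3 (-0.91), Aoc1 (0.14), Akr1c14 (-0.63), Havcr1 (0.56), Col1a1 (0.04) and Cyp2d26 (-0.01). Hbb-b2 is itself part of the globin signal, so its turn in both of these fits carries no information. Ubd turned after centring (0.03) and quantile normalization (0.02). With each array left out the sign also turned for Akr1c14 (-0.26 to 0.56), Aoc1 (-0.64 to 0.21), Car3 (-0.43 to 0.75), Fcgr1 (-0.53 to 0.01), Havcr1 (-0.71 to 0.12), Insig1 (-0.03 to 0.67), Lcn2 (-1.69 to 0.00), Tnc (-0.53 to 0.03), Ubd (-0.66 to 0.77) and Ugt2b37 (-1.18 to 0.19). The 12 genes past the threshold kept their direction in every setting that tested them. Signal over background is not known for these summarised values, so the dim genes Atp12a, Pfkfb2, Dnm3os, Cry1 and Farsa carry less certain fold changes.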
